A study of Mus musculus with 16 samples.

Results

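Regeneration of the control mouse liver was examined by comparing bulk RNA-seq libraries of control livers taken after resection of part of the organ with libraries taken before it. Gene IDs were included where the 8 control libraries together held 10 counts or more, which kept 20144 of the 55421 IDs of the count table. The series holds 16 libraries, and the 8 used here are the 4 of control before and the 4 of control after resection. The other 8 come from mice that lack HIRA, a chaperone of histone H3.3, in hepatocytes, and were left out of the test.

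Both groups came from male wildtype C57BL/6 mice that had received an adeno-associated virus at an age of 6 months. Per the labels, 2 libraries of each group came from mice given AAV8 Tbg-Cre and 2 from mice given AAV8-Tbg-saCAS9/U6-sgRNA-Rosa26, so each control carried either Cre or Cas9 with a guide to the Rosa26 locus. The Tbg promoter drives Cre or Cas9 in hepatocytes, and the Hira gene was left intact. Resection followed 4 weeks after the injection. The left lateral and median lobes removed at surgery served as the tissue before regeneration, and the liver harvested 5 days later, after euthanasia with CO2, served as the tissue after it. Time, lobe and way of collection changed together between the groups and cannot be told apart. By the study's methods the mice that gave the resected lobes were the ones harvested later, so libraries of both groups may come from the same animals. The column names give neither the virus nor the mouse, so libraries were not paired in the test and each is called here by its group and column number, as in after 1. No source used here gives a sequencing batch.

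Total counts per library ran from 16981835 to 20356781, which sets the precision of low counts. The share of counts from all genes of the mitochondrial genome (symbols that start with mt-) was 6.47% ± 0.348 before and 4.78% ± 0.462 after resection (mean ± SD, n = 4). That of Alb, the gene of albumin, was 8.35% ± 0.496 and 10.7% ± 1.21. In each case the groups did not overlap, and the two-sided exact permutation test gave p 0.0286, the smallest that 4 against 4 libraries can give (0.0286 also after adjustment over 3 shares). On the first principal component, which held 60.0% of the variance, the libraries before resection lay between -35.5 and -25.9. Libraries after 1 and after 2 lay at 14.9 and 24.6, nearer to them than after 3 and after 4 at 43.2 and 42.9. As a check of the tissue, the hepatocyte genes Alb, Apoa1 and Ttr were among the most abundant in both groups (85253 ± 5268 to 105277 ± 18535 CPM for Alb, 7219.7 ± 1269 to 5949.6 ± 1201 CPM for Apoa1 and 5303 ± 420.1 to 4403 ± 533 CPM for Ttr; CPM are counts scaled to the TMM-adjusted total of a library). Markers of neighbouring organs were mostly too low to test. Of 12 pancreas acinar genes 6 were at 0 in all 8 libraries and 2 were tested, with a summed level of 13.97, 15.4, 13.4 and 9.66 before and 12.8, 9.24, 8.47 and 9.36 after (CPM), nearly all from Cela1 (12.7 ± 2.096 to 9.19 ± 1.59 CPM). Of 11 striated muscle genes 3 were at 0 in all 8 libraries and 3 were tested, with a summed level of 0.935, 1.01, 0.565 and 1.15 before and 1.16, 0.453, 0.971 and 1.38 after (CPM). Of these 5 genes 0 were called by edgeR or DESeq2 and 1, Cela1, had an unadjusted p under 0.05. In edgeR fits with no filter on low counts, without before 4 and without after 1, 1 pancreas gene was called lower.

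Adult hepatocytes seldom divide. After loss of liver mass most of those that remain leave quiescence, replicate their DNA and pass through mitosis, while the organ has to keep up its synthesis of plasma proteins and its metabolism. Cells that are not hepatocytes (Kupffer cells, the resident macrophages; sinusoidal endothelial cells; stellate cells, which store vitamin A and make matrix) divide and signal in the same process. In bulk tissue, fewer cells of a type and less RNA per cell cannot be told apart.

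Of the 20144 genes, 3275 (16.3%) differed between the groups at an adjusted p under 0.05 in edgeR's quasi-likelihood test with Benjamini-Hochberg adjustment, and such genes are referred to as called. Of these, 1812 rose after resection (9.00% of genes tested) and 1463 fell (7.26%). A log2 fold change over 1 in either direction was reached by 1417 called genes (7.03%), 1028 higher and 389 lower, so that the larger changes were mostly increases. Levels written with ± are means ± SD of the 4 libraries of a group (n = 4). Log2 fold changes (log2FC) are of after over before resection and are given ± standard error; their median over all genes tested was 0.00. Of the called genes 55.3% were higher, compared with 69.5% of the 2006 called by limma on the deposited FPKM, as log2(FPKM + 1). The 4 libraries of the groups did not overlap in 4289 genes (21.3%). Gene lists written from general knowledge, 45 in all, held 456 of the called genes, and 2819 called genes were in no list. Members of a list are described below by counts and medians beside these shares of all genes, with no test of the list itself.

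**Figure D1:**
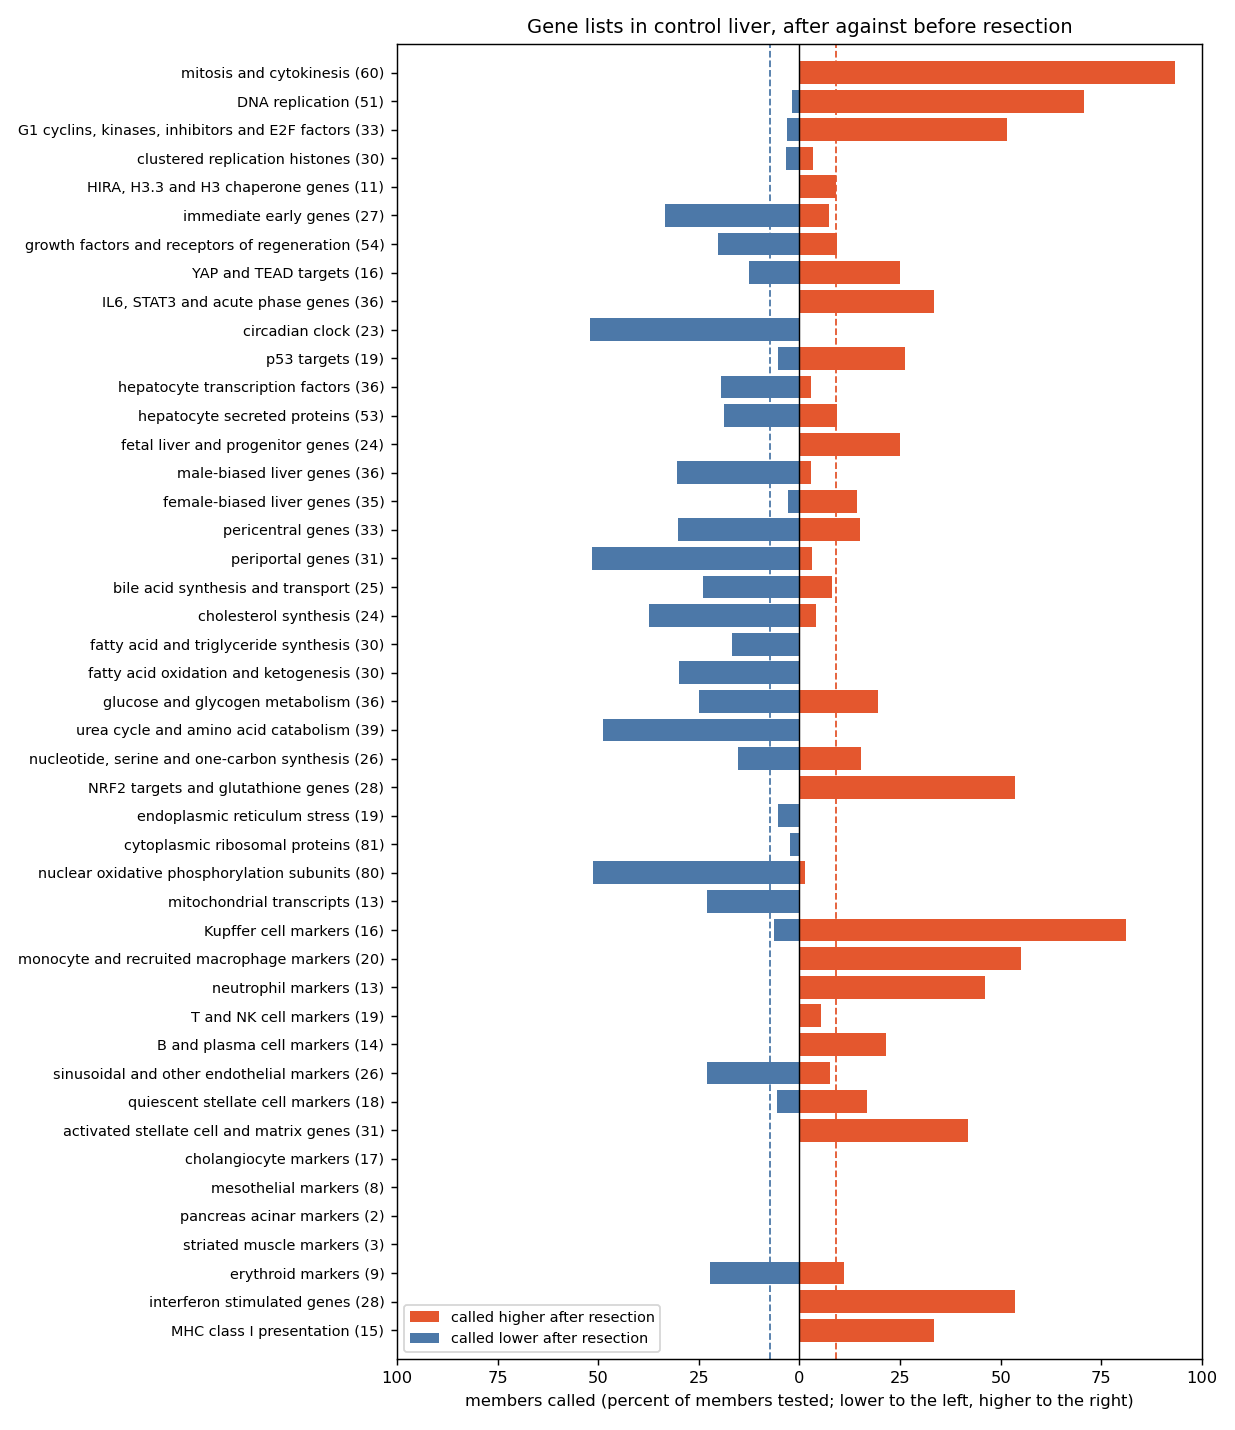
Share of tested members of each of 45 gene lists that was called higher (red, to the right) or lower (blue, to the left) after resection in control liver, in percent, with the number of members tested in brackets. Dashed lines mark the shares over all genes tested, 9.00% higher and 7.26% lower; mitosis genes (56 of 60 higher) reach farthest to the right, and circadian clock genes (12 of 23 lower) reach farthest to the left.

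The promoters of several genes that moved are shown first (those of Plk1, Cdc20, Ccnb1 and Mcm6, which rose, and of Per1, which fell), since the lists of mitosis, DNA replication and clock genes are known for shared promoter elements. Genes of mitosis are known to carry a CCAAT box, bound by NF-Y, and a cell cycle homology region (CHR; TTTGAA or TTTAAA), bound by the DREAM complex in quiescent cells and by B-MYB and FOXM1 complexes in dividing ones. Genes of DNA replication are known for E2F sites (TTTCCCGC or TTTGGCGC), and clock genes for the E-box CACGTG, bound by CLOCK and BMAL1. RefSeq windows from 250 bases before to 50 bases after each gene start (GRCm38.p6) were searched for these letters on both strands. The 250 bases before the start of 5 genes are printed 5′ to 3′ on the strand of the gene. Capitals mark CCAAT boxes and CHR letters on either strand in Plk1, Cdc20 and Ccnb1, E2F letters in Mcm6 and the E-box in Per1.
Plk1: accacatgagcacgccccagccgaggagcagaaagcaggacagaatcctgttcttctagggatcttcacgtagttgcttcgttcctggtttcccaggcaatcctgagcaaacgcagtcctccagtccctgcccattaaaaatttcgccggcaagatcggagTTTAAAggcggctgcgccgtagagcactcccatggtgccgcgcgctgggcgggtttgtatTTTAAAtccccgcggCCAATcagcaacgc
Cdc20: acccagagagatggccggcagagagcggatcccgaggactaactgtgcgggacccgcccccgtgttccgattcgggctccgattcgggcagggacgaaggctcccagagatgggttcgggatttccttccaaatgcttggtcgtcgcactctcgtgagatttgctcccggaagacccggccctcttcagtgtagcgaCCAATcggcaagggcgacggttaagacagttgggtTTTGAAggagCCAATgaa
Ccnb1: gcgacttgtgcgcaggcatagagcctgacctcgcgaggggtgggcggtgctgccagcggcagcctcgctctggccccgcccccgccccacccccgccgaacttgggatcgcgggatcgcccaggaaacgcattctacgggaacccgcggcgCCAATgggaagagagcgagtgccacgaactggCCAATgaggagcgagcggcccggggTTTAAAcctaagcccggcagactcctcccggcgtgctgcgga
Mcm6: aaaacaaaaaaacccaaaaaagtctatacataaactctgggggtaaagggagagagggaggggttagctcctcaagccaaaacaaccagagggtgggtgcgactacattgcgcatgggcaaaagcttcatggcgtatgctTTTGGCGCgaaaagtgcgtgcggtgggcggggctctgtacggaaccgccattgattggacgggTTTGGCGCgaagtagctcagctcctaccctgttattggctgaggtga
Per1: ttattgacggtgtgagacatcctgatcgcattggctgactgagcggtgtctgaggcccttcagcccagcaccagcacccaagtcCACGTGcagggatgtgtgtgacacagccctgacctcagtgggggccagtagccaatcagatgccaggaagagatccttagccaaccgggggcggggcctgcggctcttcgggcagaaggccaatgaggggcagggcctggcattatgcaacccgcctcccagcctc

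These 5 windows lie on GRCm38 at chr7:122159185-122159434 (Plk1, + strand), chr4:118437344-118437593 (Cdc20, − strand), chr13:100786487-100786736 (Ccnb1, − strand), chr1:128359706-128359955 (Mcm6, − strand) and chr11:69098699-69098948 (Per1, + strand, the first of 2 windows of this gene). A CCAAT box and a CHR stood together in 32 of the 54 windows of 50 mitosis genes (59.3%), and in 10.7% of all 32841 windows. A CHR was found in 75.9% of the mitosis windows and 27.6% of all windows, and a CCAAT box in 68.5% and 37.4%. The CCAAT box was also in 59.2% of DNA replication windows, 46.7% of immediate early windows, 75% of clock windows and 91.7% of the 12 windows of clock genes that fell. Among 49 windows of 41 DNA replication genes, E2F letters were in 26.5%, compared with 1.57% of all windows, while a CHR was in 24.5%. Among 24 windows of 19 clock genes the E-box was in 25%, compared with 7.15% of all windows, and in 5 of the 12 windows (41.7%) of clock genes that fell. No E-box stood in the 250 bases before the start in the second window of Per1 or in that of Dbp. The immediate early genes held the E-box in 7 of 30 windows (23.3%). They held the cAMP response element TGACGTCA in 3 of 30 windows (10.0%, and 1.79% of all windows), and a fixed form of the serum response element of 10 letters in 0 of the 30 and 21 of all 32841 windows. The cAMP response element was in 2 of the 10 windows of immediate early genes that fell (20%). It was absent from the 250 bases before the start of Fosb and of Nr4a1, which fell. These counts describe letters only and do not show that a factor was bound.

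Genes of mitosis and cytokinesis had the highest share of called members among the 45 lists. Of 60 members tested, 56 rose and the other 4 were not called, and in 57 the groups did not overlap, against 9.00% of all genes called higher and 21.3% not overlapping. The median log2 fold change of the list was 4.40, compared with 0.00 for all genes. Of the 60 members, 16 had under 3 counts in some library before resection, so their folds are not printed, and the median of the other 44 was 4.04. Summed over the members, the libraries held 81.3, 88.3, 106 and 90.8 before and 224, 684, 1435 and 1180 after (CPM). All 4 libraries after resection lay above all 4 before it, but they spread widely, with after 1 lowest and after 3 highest.

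Mki67 (ENSMUSG00000031004.8; chromosome 7, 135689784 to 135716361), the gene of the proliferation antigen Ki-67, had 0.787, 1.28, 2.202 and 0.977 CPM before and 11.6, 37.4, 70.2 and 76.8 CPM after. Each library after resection was above each before it, and after 1 was the lowest of its group (log2FC 5.23 ± 0.75, edgeR adjusted p 0.00615). Plk1 (ENSMUSG00000030867.7; chromosome 7, 122159439 to 122169873), a kinase of mitotic entry and spindle assembly, had 0.295, 0.266, 0.847 and 0.4598 CPM before and 3.06, 14.2, 34.4 and 25.8 CPM after. The groups did not overlap, with after 1 again nearest to the libraries before resection (log2FC 5.38 ± 0.91, edgeR adjusted p 0.0101). Cdc20 (chromosome 4, 118432901 to 118437352), the activator of the anaphase promoting complex, had 0.344, 0.692, 1.98 and 0.6897 CPM before and 5.44, 41.5, 74.3 and 61.1 CPM after, again without overlap (log2FC 5.64 ± 1.00, edgeR adjusted p 0.0131). Ccnb1 (chromosome 13, 100778650 to 100786570), which encodes cyclin B1, the partner of Cdk1 at mitotic entry, had 0.0984, 0.106, 0.9598 and 0.2299 CPM before and 2.02, 15.8, 39.5 and 28.2 CPM after. No fold is given for it, since before 1 and before 2 held under 3 counts, and the edgeR adjusted p was 0.0182. Ccnb1 was not called without any one of before 1, 2 and 4 (adjusted p 0.0541 to 0.0567 by edgeR). Cdk1 itself went from 1.01 ± 0.384 to 28.7 ± 20.1 CPM (log2FC 4.84 ± 0.76, edgeR adjusted p 0.00799). The groups did not overlap for it either.

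Genes of other steps of division rose as well. Top2a, the topoisomerase that untangles sister chromatids, went from 1.41 ± 0.741 to 32.5 ± 22.5 CPM. Kinetochore and spindle checkpoint genes included Bub1b (0.951 ± 0.267 to 10.2 ± 6.68 CPM) and Cenpf (0.231 ± 0.08799 to 10.2 ± 7.97 CPM; log2FC 5.44). Of the kinesin motors, Kif20a went from 0.979 ± 0.394 to 34.96 ± 22.1 CPM and Kif23 from 0.697 ± 0.376 to 7.46 ± 2.96 CPM, both needed for the central spindle, as is their partner Prc1 (0.907 ± 0.179 to 24.2 ± 19.7 CPM). Aurkb, the kinase of the chromosomal passenger complex, went from 0.403 ± 0.259 to 9.27 ± 5.83 CPM. Foxm1, a transcription factor of mitotic genes, rose from 0.516 ± 0.204 to 13.9 ± 9.37 CPM. Hmmr, a spindle protein, and Ckap2, a microtubule protein, were among the 12 called genes with the largest rise (log2FC 6.11 and 5.42). So were 2 genes outside the list: Knstrn, of the kinetochore, went from 0.441 ± 0.134 to 24.4 ± 15.4 CPM (log2FC 5.76 ± 0.81), and Pif1, a DNA helicase, had 0.197, 0.0532, 0 and 0.0575 CPM before and 0.856, 5.498, 12.1 and 7.04 CPM after, with no fold printed. The 4 members not called were Mybl2, Pttg1, Cit and Spc24.

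**Figure D2:**
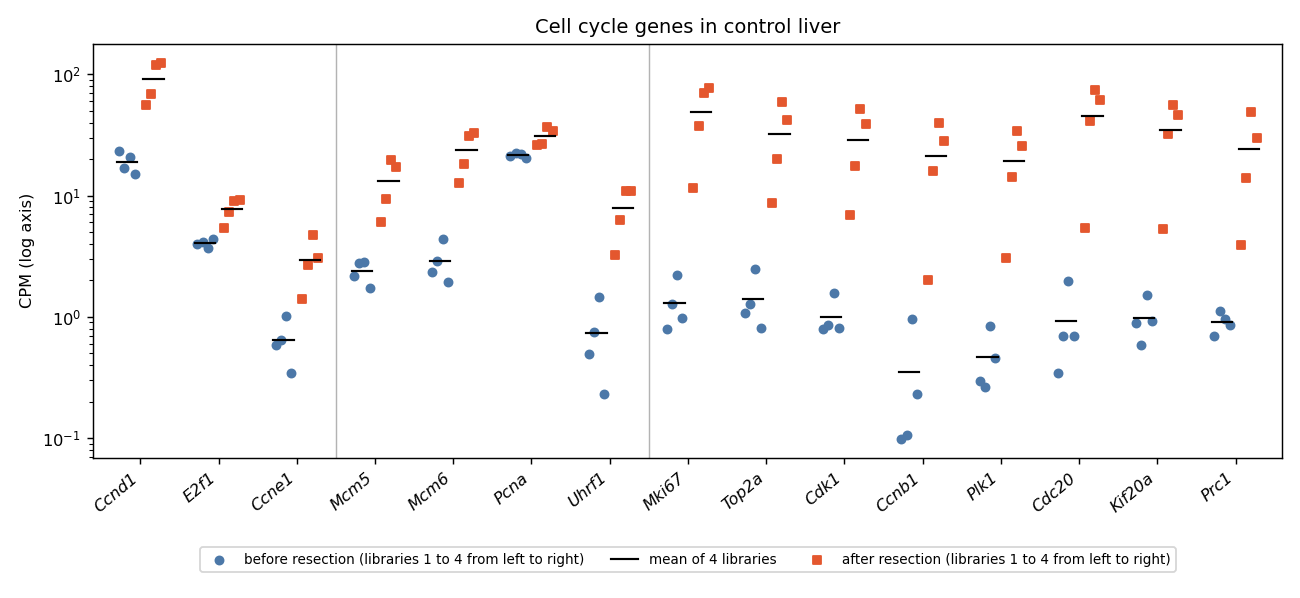
CPM (log axis) of 15 cell cycle genes in each control library, with G1 genes at the left, DNA replication genes in the middle and mitosis genes at the right; circles are the 4 libraries before and squares the 4 after resection, in column order, and bars are means. For each mitosis gene shown every square lies above every circle, and the square of after 1 is the lowest.

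Most DNA replication genes rose as well, with a lower median. Of 51 members tested, 36 rose and 1 fell, with a median log2 fold change of 0.90, and the summed level was 422, 452, 409 and 401 before and 438, 511, 711 and 693 after (CPM). Library after 1 lay within the range of the libraries before resection, and the other 3 lay above it. Called members of the list numbered 37. They numbered between 25 and 29 without any one of before 1, 2, 3 and 4 and after 3 and 4. Without after 1 there were 38, and without after 2 there were 34. Among the subunits of the MCM helicase, which unwinds origins, Mcm6 had 2.36, 2.87, 4.35 and 1.95 CPM before and 12.7, 18.2, 30.8 and 32.7 CPM after (log2FC 3.03 ± 0.38, edgeR adjusted p 0.00185). All libraries after resection were above all before it. Mcm5 went from 2.37 ± 0.523 to 13.1 ± 6.37 CPM and Mcm2 from 3.55 ± 0.640 to 12.7 ± 5.83 CPM. Uhrf1, which brings the maintenance methyltransferase to new DNA, went from 0.734 ± 0.533 to 7.85 ± 3.75 CPM (log2FC 3.42) and Dnmt1, that methyltransferase, from 13.7 ± 1.15 to 25.5 ± 3.98 CPM (log2FC 0.90). Gins2, of the same helicase, went from 0.424 ± 0.126 to 4.11 ± 2.84 CPM; 67.3% of its exon bases overlap exons of Gse1 on the opposite strand, and whether the counting used strand is not given in the sources used here. Pcna, the sliding clamp of the polymerases, rose from 21.6 ± 1.03 to 30.9 ± 5.24 CPM (log2FC 0.52 ± 0.12, edgeR adjusted p 0.0118). Rrm2, a subunit of ribonucleotide reductase, went from 7.99 ± 1.49 to 27.5 ± 14.4 CPM (edgeR adjusted p 0.029). Rrm2 was not called without any one of before 1, 2, 3 and 4 and after 4 (adjusted p 0.0558 to 0.0807 by edgeR). Tyms, thymidylate synthase, went from 5.48 ± 0.821 to 11.3 ± 4.73 CPM (edgeR adjusted p 0.0304). Tyms was not called without any one of before 2, 3 and 4 and after 3 and 4 (adjusted p 0.0711 to 0.0885 by edgeR).

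A single replication gene moved the other way. Mcm10, a factor of replisome assembly, had 73.5, 112, 64.02 and 93.4 CPM before and 27.3, 31.9, 14.7 and 27.3 CPM after, so that the groups did not overlap (log2FC -1.76 ± 0.26, edgeR adjusted p 0.00339). Its level before resection exceeded that of every MCM subunit named above in CPM, a unit that is not scaled by length. On the deposited FPKM, which is scaled by length, Mcm10 went from 44.7 to 13.8 FPKM and Mcm6 from 0.9697 to 7.06 FPKM (means of 4).

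Of 33 G1 genes (cyclins, their kinases and inhibitors, and E2F factors), 17 rose and 1 fell. Ccnd1 (chromosome 7, 144929931 to 144939925), which encodes cyclin D1, the growth factor dependent cyclin of hepatocytes, had 23.5, 16.9, 20.7 and 14.9 CPM before and 55.6, 68.8, 119.8 and 125 CPM after (log2FC 2.28 ± 0.30, edgeR adjusted p 0.00249). All libraries after resection lay above all before it, with after 3 and after 4 highest. Ccne1, which encodes cyclin E1, went from 0.647 ± 0.277 to 2.95 ± 1.36 CPM and Ccna2, which encodes cyclin A2, from 0.937 ± 0.3503 to 22.7 ± 14.1 CPM. The E2F factors E2f1 (log2FC 0.93) and E2f8 (log2FC 0.88) rose, the latter with an edgeR adjusted p of 0.036. E2f8 was not called without any one of before 1 and 3 and after 2, 3 and 4 (adjusted p 0.0655 to 0.0934 by edgeR). Inhibitors of the INK4 family rose too, Cdkn2c from 2.26 ± 0.825 to 15.6 ± 5.24 CPM (log2FC 2.79) and Cdkn2d from 1.703 ± 0.143 to 4.09 ± 1.05 CPM. Rbl2, which encodes p130, the pocket protein of quiescent cells, fell from 36.4 ± 5.19 to 25.9 ± 3.10 CPM (log2FC -0.49). Cdkn1a, which encodes p21, had 31.4, 29.9, 37.7 and 145 CPM before and 70.97, 76.1, 95.5 and 88.7 CPM after, with overlapping groups and before 4 highest of all (edgeR adjusted p 0.68). Neither Cdkn1b, which encodes p27 (32.1 ± 3.95 to 29.1 ± 3.32 CPM), nor Myc (13.6 ± 18.4 to 15.2 ± 6.44 CPM) was called. The call of Rbl2 ended without before 1 or 2 or after 4 (edgeR adjusted p 0.0521 to 0.0576).

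Few histone genes were called. Of 70 clustered replication histone genes, 30 had enough counts, 1 rose (Hist1h3d, from 0.135 ± 0.0526 to 0.5301 ± 0.265 CPM) and 1 fell (Hist1h2bc, from 94.8 ± 18.8 to 65.3 ± 2.11 CPM). Most transcripts of these genes lack a poly-A tail, and the libraries were selected for poly-A. Of 11 HIRA, H3.3 and H3 chaperone genes, Hat1, a histone acetyltransferase, rose from 7.96 ± 0.991 to 12.8 ± 3.04 CPM. Called members made up 9.09% of this list, compared with 16.3% of all genes. Hira went from 5.68 ± 0.478 to 5.59 ± 0.5597 CPM, H3f3a from 57.1 ± 4.40 to 58.4 ± 2.47 CPM and H3f3b from 182 ± 11.6 to 177 ± 23.3 CPM, none called. Of 19 p53 targets, 5 rose and 1 fell, and without before 2 the number that rose was 3. Psrc1 (0.548 ± 0.107 to 6.06 ± 0.921 CPM) and Gtse1 (1.63 ± 0.592 to 10.2 ± 4.62 CPM), which encode microtubule proteins of dividing cells, had the largest folds among them, while Mdm2 went from 44.3 ± 7.35 to 61.8 ± 7.28 CPM (edgeR adjusted p 0.0223). Mdm2 was not called without any one of before 1, 2 and 3 and after 2 (adjusted p 0.0503 to 0.0712 by edgeR). Calls also ended without the libraries in brackets, with edgeR's adjusted p beside them, for Hist1h3d (before 1 and after 2, p 0.0562 to 0.0594) and Hat1 (after 3 and 4, p 0.0521 to 0.059).

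Signals that act before and during division were mixed. Of 54 growth factors, receptors and regulators of regeneration, 5 rose, a share close to the 9.00% of all genes. In the same list 11 fell, compared with 7.26% of all genes. Among ligands of the EGF receptor, Tgfa had 22.5, 24.6, 22.8 and 21.9 CPM before and 32.6, 37.01, 37.98 and 36.4 CPM after (log2FC 0.65 ± 0.09, edgeR adjusted p 0.000947), without overlap of the groups. Btc rose from 3.12 ± 1.13 to 6.07 ± 1.93 CPM, while Ereg fell from 0.716 ± 0.318 to 0.136 ± 0.02696 CPM, with no fold printed, and Areg, at 0.104 ± 0.0659 to 0.0847 ± 0.0792 CPM, was not called. The receptor genes Egfr (343 ± 47.1 to 489 ± 221 CPM) and Met (44.2 ± 5.201 to 53.6 ± 4.85 CPM), and the ligand Hgf (2.199 ± 0.576 to 3.32 ± 1.29 CPM), were not called. Errfi1, an inhibitor of the EGF receptor, fell from 1368 ± 179.6 to 733 ± 145 CPM (log2FC -0.90 ± 0.16, edgeR adjusted p 0.00366). Vegfa, the endothelial growth factor made by hepatocytes, fell from 167 ± 12.98 to 100.5 ± 13.4 CPM, and so did its receptor genes Kdr (49.5 ± 5.97 to 32.2 ± 7.23 CPM) and Flt1 (14.1 ± 1.45 to 8.58 ± 3.09 CPM). Kdr was not called without any one of before 1 and after 3 (adjusted p 0.0502 to 0.0507 by edgeR). Flt1 was not called without any one of before 1, 2, 3 and 4 and after 3 and 4 (adjusted p 0.0729 to 0.115 by edgeR). The BMP ligands Bmp6 (7.44 ± 1.44 to 3.73 ± 0.365 CPM) and Bmp2 (19.9 ± 2.90 to 10.2 ± 3.23 CPM) fell, whereas Inhba, the activin A subunit, rose from 13.1 ± 2.78 to 24.02 ± 7.58 CPM and Nrg1 from 1.04 ± 0.433 to 6.68 ± 4.08 CPM. Left out in turn, each library before resection lowered the number of members that rose from 5 to 2 or 3, and before 1 lowered the number that fell to 7. Calls also ended without the libraries in brackets, with edgeR's adjusted p beside them, for Btc (before 2, 3 and 4 and after 3 and 4, p 0.0753 to 0.111) and Inhba (before 1, 2 and 4 and after 4, p 0.0553 to 0.0745).

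YAP and TEAD targets were split, with 4 of 16 higher and 2 lower. Ccn2, the best known of them, fell, with 17.5, 18.4, 8.24 and 23.8 CPM before and 1.65, 3.46, 1.89 and 2.28 CPM after (log2FC -2.87 ± 0.35, edgeR adjusted p 0.00128). No library after resection reached the lowest before it. Ajuba, which encodes an adaptor that inhibits the Hippo kinases, rose, with 5.02, 5.32, 6.097 and 3.28 CPM before and 15.3, 14.7, 27.2 and 18.8 CPM after (log2FC 1.95 ± 0.23, edgeR adjusted p 0.000697). Ankrd1 had means of 0.7696 ± 0.184 to 0.819 ± 0.266 CPM and was not called. The number that rose was 2 without any one of before 1, 2 and 3 and after 2, 3 and 4.

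Immediate early genes, which hepatocytes induce within minutes of a stimulus, fell in more members than they rose. Of 27 tested, 9 fell and 2 rose, and the summed level was 1241, 778, 1388 and 1089.5 before and 535, 546, 484 and 494 after (CPM). Called members numbered 11, compared with 16 by DESeq2. In edgeR fits that left out 1 library they numbered from 8 (without after 1, 3 or 4) to 13 (without before 2 or 3). Fosb (chromosome 7, 19302696 to 19310051), a subunit of the AP-1 factor, had 6.101, 4.74, 6.44 and 2.93 CPM before and 0.183, 0.0567, 0.216 and 0.1901 CPM after. Every library after resection was under 1 CPM and every one before it above 2 CPM (edgeR adjusted p 3.27e-05; no fold is printed, since some libraries after resection held under 3 counts). Fos went from 19.5 ± 16.2 to 2.79 ± 1.202 CPM (log2FC -2.81 ± 0.66, edgeR adjusted p 0.0313). Fos was not called without any one of before 1 and after 1, 3 and 4 (adjusted p 0.0585 to 0.0875 by edgeR). Nr4a1, an orphan nuclear receptor, had 128, 8.51, 50.6 and 32.4 CPM before and 3.97, 3.68, 2.27 and 1.71 CPM after, without overlap but with 1 high library before resection (log2FC -4.25 ± 0.91, edgeR adjusted p 0.0258). Nr4a1 was not called without any one of before 3 and after 1, 2, 3 and 4 (adjusted p 0.0511 to 0.0764 by edgeR). Dusp1, a phosphatase of MAP kinases, fell from 152 ± 61.5 to 26.5 ± 6.99 CPM (log2FC -2.52), Zfp36, which destabilises mRNAs of cytokines, from 229.6 ± 105 to 69.1 ± 12.6 CPM (log2FC -1.73) and Junb from 59.96 ± 12.2 to 27.2 ± 8.503 CPM. Values in the same direction that were not called were those of Jun (59.7 ± 25.8 to 28.96 ± 9.69 CPM), Egr1 (119.6 ± 45.5 to 41.6 ± 24.1 CPM) and Btg2 (75.9 ± 32.3 to 28.96 ± 13.8 CPM). Klf6, a zinc finger factor, rose from 10.5 ± 1.01 to 22.4 ± 5.73 CPM (log2FC 1.09 ± 0.17, edgeR adjusted p 0.00176), as did Ier5 from 5.45 ± 0.323 to 17.6 ± 1.605 CPM (log2FC 1.69 ± 0.12, edgeR adjusted p 2.16e-05). The tissue before resection was cut from live animals and that after it was taken after euthanasia. The way of collection and regeneration cannot be told apart in these values.

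All clock genes that were called fell. Of 23 tested, 12 fell and the other 11 were not called, with a median log2 fold change of -1.04 and a summed level of 1449, 1099.7, 874 and 966 before and 508, 545, 551 and 497 after (CPM), without overlap of the groups. Rgs16, a regulator of G protein signalling with a daily rhythm in liver, had 130.3, 75.1, 58.6 and 121 CPM before and 2.38, 0.624, 1.02 and 3.14 CPM after (log2FC -5.73 ± 0.54, edgeR adjusted p 0.00122) and was among the 12 largest falls named by fold. Among the repressors of the clock, Per2 had 35.3, 49.3, 27.5 and 24.02 CPM before and 9.11, 14.2, 10.8 and 8.89 CPM after (log2FC -1.66 ± 0.24, edgeR adjusted p 0.00261), again without overlap. Per1 went from 44.6 ± 23.8 to 9.58 ± 4.45 CPM (edgeR adjusted p 0.0418). Per1 was not called without any one of before 1, 2 and 4 and after 1, 2, 3 and 4 (adjusted p 0.0674 to 0.0976 by edgeR). Per3 went from 15.8 ± 11.3 to 2.596 ± 0.711 CPM (edgeR adjusted p 0.0208). Per3 was not called without any one of after 1, 3 and 4 (adjusted p 0.0552 to 0.0675 by edgeR). Bhlhe40 fell from 230.1 ± 110.3 to 53.1 ± 9.84 CPM, Ciart from 2.55 ± 1.41 to 0.507 ± 0.138 CPM and Nr1d2, which encodes REV-ERB beta, from 55.1 ± 13.6 to 26.8 ± 3.27 CPM. The 3 output factors with a PAR leucine zipper all fell, Tef from 114 ± 45.0 to 33.3 ± 4.50 CPM, Hlf from 47.96 ± 6.197 to 25.4 ± 1.998 CPM and Dbp from 23.7 ± 19.8 to 2.58 ± 1.16 CPM. Dbp was high in before 1 and before 2 and low elsewhere (46.2, 34.4, 7.001 and 7.13 CPM before and 2.995, 3.34, 0.863 and 3.14 CPM after). Dbp was not called without any one of before 1 and 2 and after 1, 2, 3 and 4 (adjusted p 0.0829 to 0.109 by edgeR). On the activator side Arntl, which encodes BMAL1, went from 17.04 ± 9.49 to 31.8 ± 5.24 CPM and Clock and Npas2 were likewise not called, while Cry1 went from 13.1 ± 6.25 to 15.6 ± 8.54 CPM. Without after 4, the number that fell was 7 of 23. Called members numbered 8 without any one of before 1 and 2 and after 1 and 3, and 9 without after 2. With no filter on low counts they also numbered 8. They numbered 11 without before 4, 13 without before 3 and 15 by DESeq2. Surgery was done in the morning, and the hour of the later harvest is not given in the sources used here. Time of day and regeneration cannot be told apart in these values.

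**Figure D3:**
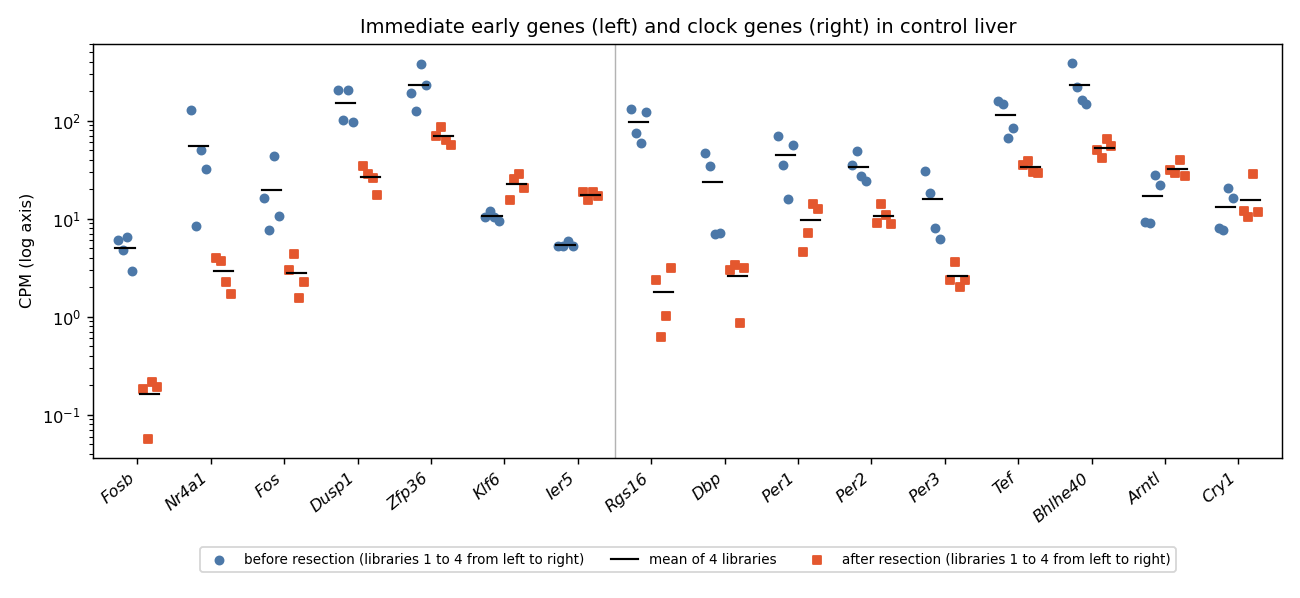
CPM (log axis) of 7 immediate early genes (left) and 9 clock genes (right) in each control library; circles are the 4 libraries before and squares the 4 after resection, in column order, and bars are means. Fosb and Rgs16 show the widest gaps between the groups, Klf6 and Ier5 are higher after resection, and the circles and squares of Cry1 overlap.

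Of 53 genes of plasma proteins made by hepatocytes, 5 rose, a share close to the 9.00% of all genes, 10 fell and 38 were not called, with a median log2 fold change of -0.02. Alb had 90246, 77928, 87409 and 85430.5 CPM before and 131252, 91329, 105936 and 92592 CPM after and was not called in the fit over all genes (edgeR adjusted p 0.281), although its share of counts differed as given above. Trf, which encodes transferrin, had the largest gain in CPM of all called genes (16271, 17314, 18225 and 14237 CPM before and 35309, 25558, 30096 and 25152 CPM after; log2FC 0.81 ± 0.17, edgeR adjusted p 0.0067), with 63.5% of its exon bases shared with the annotated transcript Gm20425 of the same strand. All 4 libraries after resection were above all before it. The complement gene C3 went from 7444 ± 1264 to 16074 ± 3194 CPM (log2FC 1.11) and the copper oxidase Cp from 1245 ± 119.8 to 2704 ± 324 CPM (log2FC 1.12). Ambp went from 2816 ± 238 to 4068 ± 665 CPM (edgeR adjusted p 0.0303). Ambp was not called without any one of before 1, 2 and 4 and after 1 and 3 (adjusted p 0.0578 to 0.0912 by edgeR). Clu, a chaperone found in plasma that was in no list, rose from 1816 ± 206 to 2924 ± 514 CPM (log2FC 0.69). Of the apolipoprotein genes, Apoe fell from 16565 ± 1098 to 9965 ± 1385 CPM (log2FC -0.73 ± 0.15, edgeR adjusted p 0.00679), Apoa2 from 4121 ± 788 to 1872 ± 426 CPM (log2FC -1.14), Apoa5 from 889 ± 279 to 339.7 ± 42.7 CPM and Apoc1 from 2699.9 ± 310.4 to 1675 ± 365 CPM. Apoa1, Apob and Apoc3 were not called. Serpina1c and Serpina1d, of the alpha-1 antitrypsin family, fell by 0.97 and 1.00 on the log2 scale; these copies are nearly identical and share reads. The call of Apoc1 ended without after 3 (edgeR adjusted p 0.0509).

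Acute phase genes, induced in hepatocytes through IL6 and STAT3, rose in part. Of 36 tested, 12 rose and the other 24 were not called (16 rose and 3 fell by DESeq2), and the summed level was 23589.8, 29863, 39369 and 28055 before and 74097, 53389, 58671 and 41373 after (CPM), without overlap. Orm2, a gene of orosomucoid, had 12.6, 15.5, 74.9 and 23.7 CPM before and 1114, 617, 653 and 575 CPM after (log2FC 4.55 ± 0.71, edgeR adjusted p 0.00779), with before 3 highest among the libraries before resection. Hpx, which encodes the haem carrier hemopexin, had 3697, 4114, 6915 and 3763 CPM before and 17058, 11544, 13682 and 11461 CPM after (log2FC 1.54 ± 0.23, edgeR adjusted p 0.0012), Hp, which encodes haptoglobin, went from 3410.1 ± 1219 to 7979.8 ± 2125 CPM, and Orm1 from 841 ± 376 to 2428 ± 487 CPM. Lbp rose from 105 ± 7.01 to 222 ± 56.2 CPM, Apcs from 66.5 ± 34.4 to 333 ± 82.3 CPM and the receptor subunit Osmr from 4.11 ± 0.694 to 8.42 ± 1.18 CPM. Lcn2 had 4.33, 4.31, 116 and 7.59 CPM before and 822, 394, 594 and 568 CPM after and was not called (edgeR adjusted p 0.0896), and Saa1 had 39.6, 100.4, 1380.4 and 102 CPM before and 1882, 1837, 925 and 434 CPM after (edgeR adjusted p 0.452). In both, library before 3 lay far above the other 3 of its group. Socs3 was not called (25.1 ± 29.4 to 19.6 ± 6.14 CPM). Without before 4, 9 rose and 2 fell, and without before 3, 16 rose and 1 fell.

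Transcription factors that set hepatocyte identity were measured in 36 genes, of which 7 fell and 1 rose. Hnf4a had 606, 638, 692 and 774 CPM before and 672, 567, 679.7 and 555 CPM after, with overlapping groups (edgeR adjusted p 0.543). Cebpa, a factor that restrains division, fell from 388 ± 10.1 to 206 ± 71.3 CPM (log2FC -0.91 ± 0.21, edgeR adjusted p 0.0143), Ppara, the receptor of fatty acid oxidation, from 69.8 ± 11.8 to 39.9 ± 3.54 CPM (log2FC -0.81) and Nfib from 72.3 ± 7.63 to 49.1 ± 3.84 CPM. Cebpb went from 138 ± 35.97 to 90.4 ± 11.2 CPM (edgeR adjusted p 0.0334). Cebpb was not called without any one of before 1, 2 and 4 and after 1, 2, 3 and 4 (adjusted p 0.052 to 0.0947 by edgeR). Esr1 rose from 16.02 ± 1.26 to 26.6 ± 1.64 CPM (log2FC 0.73). Left out in turn, before 1, before 2, after 2 and after 4 lowered the number that fell to 3 or 4.

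Fetal and progenitor genes rose in 6 of 24 members tested. Ly6d (ENSMUSG00000034634.7; chromosome 15, 74762056 to 74763620), a gene of a small surface protein of the Ly6 family, had 0.394, 0.426, 0.395 and 0.862 CPM before and 62.7, 54.98, 93.7 and 175 CPM after (log2FC 7.54 ± 0.58, edgeR adjusted p 0.000624). It was under 1 CPM in every library before resection and above 50 CPM in every one after it, the largest fold printed for a rise. The imprinted H19 RNA had 0.0984, 0.372, 0.226 and 0.2299 CPM before and 15.04, 15.1, 1.78 and 4.94 CPM after, and no fold is printed because of low counts before resection (edgeR adjusted p 0.00802). Afp, which encodes alpha-fetoprotein, rose from 1.84 ± 0.417 to 3.56 ± 0.449 CPM (log2FC 0.95). The keratin genes of hepatocytes rose, Krt8 from 160.5 ± 18.1 to 332 ± 54.2 CPM (log2FC 1.05) and Krt18 from 184 ± 37.7 to 389.6 ± 66.3 CPM (log2FC 1.08). Of the biliary genes in the list, Sox9 (6.64 ± 2.897 to 12.7 ± 4.07 CPM), Epcam (2.28 ± 0.655 to 1.67 ± 0.131 CPM) and Krt19 (1.75 ± 0.389 to 1.39 ± 0.279 CPM) were not called, and of 17 cholangiocyte markers 0 were called by edgeR, 3 at an unadjusted p under 0.05 and 2 by DESeq2.

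Genes of the periportal zone, where gluconeogenesis and ureagenesis are strongest, mostly fell where called, and those around the central vein changed in both directions. Of 31 periportal genes, 16 fell and 1 rose, with a log2 median of -0.66, and 33 pericentral genes included 10 that fell and 5 that rose, with a log2 median of -0.17 (2 fell and 4 rose in the edgeR fit of all 16 libraries). The summed periportal level was 39176, 38957, 38842 and 36258 before and 29293, 28263, 19749 and 15890 after (CPM), with after 3 and after 4 lowest. The summed pericentral level was 19469.8, 17933, 20388 and 21908 before and 19079, 18054, 21724 and 26089 after (CPM), and the groups overlapped. The mean of this sum went from 19925 to 21237 CPM. Of its members, the glutathione transferase genes Gstm1 and Gstm3 alone gained 5017 and 2295 CPM. The other members together therefore fell in mean level. Among pericentral genes, Cyp2e1, the ethanol-inducible cytochrome, had 5005, 4388, 5269 and 6319 CPM before and 2628, 1408, 1387 and 1451 CPM after (log2FC -1.61 ± 0.22, edgeR adjusted p 0.000887), without overlap. Cyp2c29 fell from 1722 ± 357 to 663 ± 150.1 CPM and Ces1d from 648 ± 75.7 to 262 ± 58.3 CPM. Glul, the glutamine synthetase of the innermost hepatocytes, went from 1018 ± 224 to 611 ± 141 CPM (edgeR adjusted p 0.0184). Glul was not called without any one of before 3 and after 2, 3 and 4 (adjusted p 0.0517 to 0.0604 by edgeR). Cyp1a2 (722 ± 155 to 761 ± 196 CPM) and Lgr5 were not called. The pericentral genes that rose included the glutathione transferases Gstm1 and Gstm3, described below, and the amino acid carrier Slc1a4 (7.21 ± 1.07 to 27.1 ± 7.32 CPM; log2FC 1.91).

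Of 36 glucose and glycogen genes, 9 fell, 7 rose and 20 were not called, with a log2 median of -0.16. G6pc (chromosome 11, 101367561 to 101377903), which releases free glucose, had 1239, 542, 1027 and 1182 CPM before and 173, 160.2, 134 and 84.2 CPM after (log2FC -2.85 ± 0.31, edgeR adjusted p 0.000845). Pck1, the gene of phosphoenolpyruvate carboxykinase, had 3097, 3009, 2542 and 3833 CPM before and 1041, 1072, 1093 and 712 CPM after (log2FC -1.67 ± 0.18, edgeR adjusted p 0.000233). In both genes the highest library after resection was far below the lowest before it. Others that fell were the transporter Slc2a2 from 403 ± 35.1 to 185 ± 24.1 CPM (log2FC -1.12) and the glycogen synthase Gys2 from 179 ± 33.4 to 109 ± 13.1 CPM. Among those that rose were Slc2a1 from 10.8 ± 2.58 to 18.6 ± 1.52 CPM, Hk2 from 1.29 ± 0.502 to 3.29 ± 0.728 CPM, Aldoa from 90.4 ± 5.204 to 135 ± 23.5 CPM and Pkm from 17.7 ± 3.03 to 29.3 ± 1.16 CPM (log2FC 0.73 ± 0.12, edgeR adjusted p 0.00215). So did the oxidative pentose phosphate genes G6pdx (11.03 ± 2.85 to 18.8 ± 3.21 CPM) and Pgd (66.1 ± 11.7 to 161 ± 49.9 CPM; log2FC 1.29). Of the glycogen targeting subunits of protein phosphatase 1, Ppp1r3b fell from 307 ± 52.98 to 126 ± 34.8 CPM (log2FC -1.28). Ppp1r3g, of the same family, had 39.8, 2.45, 35.96 and 24.4 CPM before and 0.122, 0.283, 0.0539 and 0.0475 CPM after, and no fold is printed because of low counts after resection (edgeR adjusted p 0.00911). The call of G6pdx ended without after 2 (edgeR adjusted p 0.0506).

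All called genes of amino acid catabolism fell. Of 39 genes of the urea cycle and amino acid breakdown, 19 fell and the other 20 were not called, 38 had a negative log2 fold change, and the median was -0.69. Tat, tyrosine aminotransferase, had 2525, 2088, 3109.7 and 2993 CPM before and 693, 963, 622 and 508 CPM after (log2FC -1.94 ± 0.20, edgeR adjusted p 0.000233), without overlap. Csad, which makes the taurine precursor, fell from 335 ± 80.01 to 75.1 ± 21.1 CPM (log2FC -2.16), Tdo2, tryptophan dioxygenase, from 1581 ± 177 to 776 ± 154 CPM, and Hal, histidine ammonia lyase, from 516 ± 76.2 to 224 ± 71.1 CPM. In the urea cycle Asl fell from 503 ± 68.5 to 223 ± 55.7 CPM (log2FC -1.17) and Arg1 from 1346 ± 156 to 921 ± 86.5 CPM (log2FC -0.55). Arg1 was not called without after 3 (adjusted p 0.0502 by edgeR). Cps1 (3677 ± 691 to 2281 ± 836 CPM), Otc (476 ± 60.2 to 323 ± 89.7 CPM) and Ass1 (2840.1 ± 613 to 1629 ± 738 CPM) were not called. Tat, Tdo2, Hal, Asl, Arg1, Cps1, Otc and Ass1 are also in the periportal list, so the results of these lists are not independent. Without after 3 the number that fell was 11, and the summed level was 35715, 33483, 30148 and 34665 before and 24253, 23677, 14422 and 14056 after (CPM), with after 3 and after 4 lowest.

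In lipid metabolism most called members fell. Of 24 cholesterol synthesis genes 9 fell and 1 rose, and 23 had a negative log2 fold change. Summed over the list, the libraries held 4678, 4659.6, 4947 and 4505 before and 4576, 4414, 3668 and 4119 after (CPM). Of 30 fatty acid and triglyceride synthesis genes 5 fell and 25 were not called. Called members made up 16.7% of this list, close to the 16.3% of all genes, while 7.26% of all genes fell. Those that fell included Dgat2 (532 ± 34.95 to 272 ± 51.6 CPM, log2FC -0.96) and Thrsp (438 ± 52.8 to 93.9 ± 58.5 CPM). Thrsp was not called without before 4 (adjusted p 0.0503 by edgeR). The number of synthesis genes that fell was 3 without after 2, with no filter on low counts or by limma on FPKM. By DESeq2 9 of them fell and 1 rose. Scd1 had 6817, 5662, 8211 and 17415 CPM before and 3737, 7559.6, 1045 and 437 CPM after and was not called (edgeR adjusted p 0.318); before 4 and after 2 were the highest of their groups. Of 30 fatty acid oxidation and ketogenesis genes 9 fell and 21 were not called; those that fell included the binding protein gene Fabp1 (2399 ± 517 to 1219.7 ± 229.8 CPM; log2FC -0.98). Cpt1a and the peroxisome proliferator targets Cyp4a10, Cyp4a14 and Pdk4 were not called. Of 25 bile acid genes 6 fell, compared with 7.26% of all genes, and 2 rose, a share close to the 9.00% of all genes. The number that rose was 0 without before 4 or after 3, 1 without before 1, before 2 or after 4, and 4 without after 1. Slc10a1, the bile acid uptake carrier, had 759.7, 651, 684 and 709 CPM before and 426, 289, 271 and 214 CPM after (log2FC -1.22 ± 0.18, edgeR adjusted p 0.00128), without overlap, and the carriers Slco1b2 (899 ± 28.9 to 503 ± 78.6 CPM) and Slco1a1 (395 ± 118 to 119.6 ± 37.6 CPM) fell with it. The efflux gene Slc51b went from 0.698 ± 0.397 to 2.99 ± 1.802 CPM (edgeR adjusted p 0.0284). Slc51b was not called without any one of before 1 and 4 and after 3 and 4 (adjusted p 0.0528 to 0.08 by edgeR). Cyp7a1, the rate-limiting enzyme of bile acid synthesis, went from 46.9 ± 12.7 to 24.8 ± 26.1 CPM and was not called.

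Called respiratory chain genes fell by small amounts, with 1 exception. Of 80 nuclear genes of oxidative phosphorylation, 41 fell and 1 rose (6 and 1 by limma on FPKM), 78 had a negative log2 fold change, and the median was -0.34. Ndufb9, of complex I, fell from 129 ± 14.97 to 80.5 ± 4.29 CPM (log2FC -0.68 ± 0.10, edgeR adjusted p 0.00147), and Ndufa6 from 127 ± 8.28 to 80.9 ± 7.46 CPM. Cox6b2, an isoform known from testis, rose from 0.123 ± 0.1198 to 2.59 ± 1.63 CPM, with no fold printed. The number that fell was between 19 and 22 without before 4, after 2 or after 3. Of the 13 protein-coding transcripts of the mitochondrial genome all had a negative log2 fold change and 3 fell (mt-Co1, mt-Nd5 and mt-Nd6). Among them, mt-Co1 went from 25677 ± 1495 to 17410 ± 2203 CPM (edgeR adjusted p 0.0253). mt-Co1 was not called without any one of before 1, 2, 3 and 4 and after 3 (adjusted p 0.052 to 0.0742 by edgeR). Without before 1 edgeR called 0 of the 13 (5 at an unadjusted p under 0.05), without after 3 it called 1, and without before 2 it called 8. Few cytoplasmic ribosomal protein genes were called, with 2 of 81 lower, 79 not called and a median of -0.04; without before 2, before 3, before 4, after 2 or after 3 edgeR called 0 of them (4 to 6 at an unadjusted p under 0.05). Of 19 genes of endoplasmic reticulum stress, 1 was called, Herpud1, which fell from 582 ± 182 to 194 ± 27.7 CPM (log2FC -1.59). Calls also ended without the libraries in brackets, with edgeR's adjusted p beside them, for mt-Nd5 (before 1, p 0.0549) and mt-Nd6 (before 1 and after 3, p 0.0502 to 0.0508).

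All called genes of the oxidant response rose. NRF2, the factor encoded by Nfe2l2, drives genes of glutathione conjugation and thioredoxin reduction through antioxidant response elements. Of 28 targets and glutathione genes tested, 15 rose and the other 13 were not called, all 28 had a positive log2 fold change, and the median was 1.39. The summed level was 7841, 7941, 6494 and 7013 before and 13047, 15451, 21596 and 26682 after (CPM), without overlap, with after 4 highest and after 1 lowest of their group. Gstm3 (chromosome 3, 107963696 to 107969283), a glutathione transferase, had 183, 174, 65.04 and 85.9 CPM before and 631, 1793, 3038 and 4227 CPM after (log2FC 4.25 ± 0.71, edgeR adjusted p 0.00937). Its relative Gstm1 had 2222, 1884, 1585 and 1806 CPM before and 4641, 5353, 8005 and 9568 CPM after (log2FC 1.88 ± 0.23, edgeR adjusted p 0.000485). The groups did not overlap in either gene; the Gstm genes lie in a cluster of close paralogs, so that some reads may be shared. Osgin1 went from 147 ± 62.7 to 1171 ± 343 CPM (log2FC 3.00), Srxn1, sulfiredoxin, from 47.8 ± 5.15 to 367 ± 283 CPM (log2FC 2.94), Txnrd1, thioredoxin reductase, from 165 ± 13.9 to 367 ± 123 CPM and Hmox1, haem oxygenase, from 20.8 ± 4.998 to 44.7 ± 5.15 CPM. Ugdh, which supplies glucuronic acid, went from 213 ± 23.3 to 538 ± 90.3 CPM (log2FC 1.33). Gpx2, a glutathione peroxidase best known from gut, had 0.0492, 0.0532, 0.0565 and 0.0575 CPM before and 1.34, 2.61, 9.01 and 14.2 CPM after, with no fold printed (edgeR adjusted p 0.00753). Several genes had after 4 far above after 1. Cbr3, a carbonyl reductase, had 0.5904, 0.692, 0.339 and 0.862 CPM before and 3.79, 9.52, 30.7 and 114 CPM after (log2FC 5.99 ± 1.39, edgeR adjusted p 0.0334). Cbr3 was not called without any one of before 1, 2, 3 and 4 and after 3 (adjusted p 0.0656 to 0.0894 by edgeR). Nqo1, a quinone reductase, had 9.54, 8.19, 6.44 and 10.0 CPM before and 20.4, 28.1, 61.99 and 131 CPM after (log2FC 2.82 ± 0.65, edgeR adjusted p 0.0318). Nqo1 was not called without any one of before 1, 2, 3 and 4 and after 3 (adjusted p 0.0697 to 0.0797 by edgeR). Gclc, the rate-limiting enzyme of glutathione synthesis, went from 349 ± 87.2 to 745 ± 318 CPM (edgeR adjusted p 0.0462). Gclc was not called without any one of before 1, 2 and 3 and after 3 and 4 (adjusted p 0.0993 to 0.109 by edgeR).

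Among 26 genes of nucleotide, serine and folate metabolism, 4 rose and 4 fell. Asns, asparagine synthetase, had 0.541, 0.372, 0.565 and 0.0575 CPM before and 4.04, 5.498, 5.93 and 3.33 CPM after, with no fold printed (edgeR adjusted p 0.000267). Mthfd1l, of mitochondrial folate metabolism, went from 0.506 ± 0.253 to 3.62 ± 1.77 CPM (log2FC 2.84). The purine genes Paics and Ppat and the folate genes Shmt1 and Mthfd1 fell, from 264 ± 40.2 to 192 ± 13.5 CPM, 36.9 ± 11.8 to 19.1 ± 3.52 CPM, 214 ± 19.6 to 144 ± 25.7 CPM and 273 ± 35.2 to 186 ± 31.1 CPM. Paics was not called without any one of before 1 and 2 and after 3 and 4 (adjusted p 0.0582 to 0.0743 by edgeR). Left out in turn, before 1, before 2, after 3 and after 4 lowered the number that fell to 1 or 2, and before 2 and after 3 lowered the number that rose to 3. Calls also ended without the libraries in brackets, with edgeR's adjusted p beside them, for Ppat (before 1 and after 4, p 0.0528 to 0.0637) and Mthfd1 (before 1 and 2 and after 3 and 4, p 0.0516 to 0.0584).

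**Figure D4:**
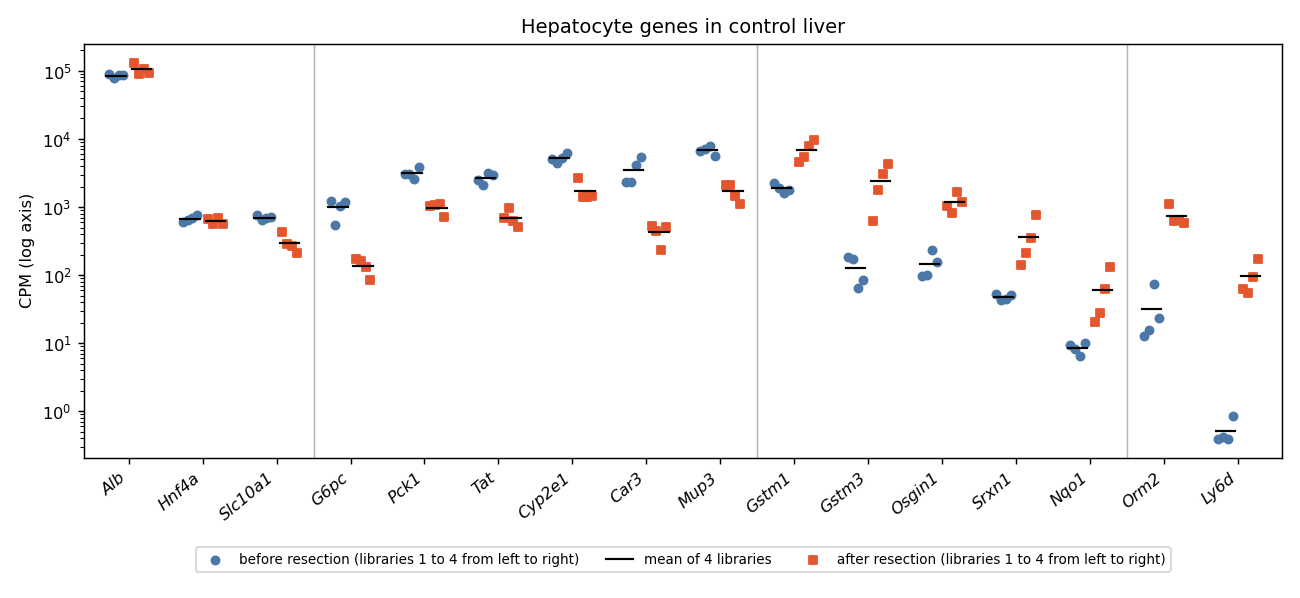
CPM (log axis) of 16 genes in each control library: identity and carrier genes, metabolic genes and Mup3, NRF2 targets, and Orm2 with Ly6d, separated by grey lines; circles are the 4 libraries before and squares the 4 after resection, in column order, and bars are means. Squares lie below circles for the 6 genes from G6pc to Mup3 and above them for the NRF2 targets, Orm2 and Ly6d, while those of Hnf4a overlap.

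Genes with a sex difference in liver, which follows the sex-specific pattern of growth hormone, were grouped in 2 lists. Called members made up 33.3% of the male-biased list and 17.1% of the female-biased list, the latter close to the 16.3% of all genes. Of 36 male-biased genes, 11 fell and 1 rose (19 and 1 by DESeq2, and 2 and 1 in the edgeR fit of all 16 libraries), with a median log2 fold change of -1.21. The major urinary proteins, a family of 22 genes with near-identical copies, took 1.10% ± 0.293 of counts before and 0.301% ± 0.107 after resection (n = 4; exact permutation p 0.0286, adjusted 0.0286). Mup3 had 6622, 7094, 7992 and 5564 CPM before and 2099, 2120.3, 1437 and 1116 CPM after (log2FC -2.01 ± 0.22, edgeR adjusted p 0.00024), without overlap. Mup12 and Mup21 were among the 12 largest falls, from 36.9 ± 24.5 to 3.799 ± 3.52 CPM and 268 ± 96.6 to 35.6 ± 29.3 CPM. Mup12 was not called without any one of before 2 and 3 and after 1, 3 and 4 (adjusted p 0.0761 to 0.0989 by edgeR). Mup21 was not called without any one of before 1, 2 and 3 and after 1 and 3 (adjusted p 0.0509 to 0.0739 by edgeR). In the deposited FPKM, Mup12 went from 502 to 100.3 FPKM, and the values of these near-identical copies are uncertain. Hsd3b5, a male-specific steroid enzyme, had 138, 159.8, 216 and 52.3 CPM before and 10.2, 27.1, 4.16 and 1.33 CPM after (log2FC -3.73 ± 0.97, edgeR adjusted p 0.0473). Hsd3b5 was not called without any one of before 1, 2, 3 and 4 and after 1, 3 and 4 (adjusted p 0.0574 to 0.112 by edgeR). Cyp2d9 fell from 1526 ± 270.5 to 658 ± 246 CPM (log2FC -1.21), and Gstp2 rose from 4.15 ± 1.93 to 24.8 ± 10.1 CPM. Elovl3 (359 ± 212 to 73.4 ± 47.3 CPM) and Cyp4a12a (205 ± 104 to 43.8 ± 55.1 CPM) were not called. Left out in turn, before 2, before 3, after 1, after 3 and after 4 lowered the number that fell to 6 or 7.

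Of 35 female-biased genes, 5 rose and 1 fell, a share of called members close to that of all genes. Their median log2 fold change was 0.91, compared with 0.00 for all genes, and 28 of the 35 had a positive value. For 10 members no fold is printed because of low counts, and the median of the other 25 was 0.43. Cyp3a41a, a female-specific cytochrome, had 0.0492, 0, 0 and 0.0575 CPM before and 10.3, 2.32, 7.45 and 13.6 CPM after, and Cyp3a44 went from 0.261 ± 0.142 to 11.4 ± 10.1 CPM (log2FC 5.44 ± 1.01, edgeR adjusted p 0.0132). No fold is printed for Cyp3a41a because of low counts before resection. On the deposited FPKM, means went from 11.9 to 37.5 FPKM for Cyp3a41a and from 11.6 to 18.1 FPKM for Cyp3a44, smaller changes than on the counts; these genes have close paralogs and their values are uncertain. Cyp2a4 had 0.984, 1.22, 0.621 and 6.32 CPM before and 19.6, 4.08, 87.4 and 599.7 CPM after, with 1 library after resection far above the others, and was not called (edgeR adjusted p 0.0774). Cux2 (0.299 ± 0.114 to 0.5702 ± 0.167 CPM) and Cyp2b9 (12.5 ± 22.03 to 15.3 ± 13.8 CPM) were not called. Of the growth hormone signalling genes, Stat5b fell from 79.6 ± 3.73 to 56.7 ± 11.8 CPM and Bcl6 went from 45.7 ± 36.5 to 28.2 ± 19.7 CPM, not called. The call of Stat5b ended without before 1, 2 or 3 or after 2 (edgeR adjusted p 0.0592 to 0.0704).

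Most markers of Kupffer cells rose. Of 16 Kupffer cell markers 13 rose and 1 fell (5 and 1 in the edgeR fit with no filter on low counts). The marker that fell had a log2FC of -2.26. The summed level was 775, 663, 739.7 and 449 before and 1319, 1336, 1409 and 1150 after (CPM), without overlap. Marco, a scavenger receptor, had 10.04, 9.95, 13.4 and 1.72 CPM before and 126, 149, 128 and 107 CPM after (log2FC 3.85 ± 0.54, edgeR adjusted p 0.00541). Clec4f, a lectin of Kupffer cells, had 74.5, 82.9, 98.8 and 39.4 CPM before and 162, 158, 185 and 139 CPM after (log2FC 1.12 ± 0.24, edgeR adjusted p 0.0141), and Cd5l went from 75.5 ± 30.1 to 289.5 ± 26.01 CPM (log2FC 1.94). Timd4 went from 6.12 ± 2.61 to 13.5 ± 0.935 CPM (edgeR adjusted p 0.0324). Timd4 was not called without any one of before 1 and 2 and after 1, 2, 3 and 4 (adjusted p 0.057 to 0.0762 by edgeR). Without before 1, after 2 or after 3 the number that rose was 7.

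Of 20 monocyte and recruited macrophage markers 11 rose and the other 9 were not called, with a summed level of 204, 186, 228 and 149 before and 358, 424, 492 and 467 after (CPM). Chil3, of monocytes and alternatively activated macrophages, had 0.0492, 0.213, 0.169 and 0.0575 CPM before and 3.24, 3.17, 4.16 and 2.61 CPM after (edgeR adjusted p 3.78e-05; no fold printed). Ly6c2 (0.537 ± 0.114 to 1.72 ± 0.388 CPM), Ccr2 (1.21 ± 0.503 to 3.46 ± 0.582 CPM), Lgals3 (4.91 ± 1.10 to 14.9 ± 1.48 CPM) and Plac8 (4.56 ± 1.18 to 16.1 ± 1.02 CPM) rose too. Of 13 neutrophil markers 6 rose, all at means under 7 CPM after resection (summed level of the 13 markers 23.5, 65.98, 35.4 and 17.4 before and 59.1, 35.2, 30.9 and 26.2 after, in CPM, with overlapping groups), with Csf3r from 3.72 ± 0.415 to 6.75 ± 1.76 CPM and S100a9 from 1.78 ± 0.944 to 4.34 ± 1.41 CPM. S100a9 was not called without any one of before 2 and 4 and after 1, 2, 3 and 4 (adjusted p 0.0509 to 0.0995 by edgeR). Of 19 T and NK cell markers 1 rose (Prf1, from 0.108 ± 0.0462 to 0.396 ± 0.242 CPM), 5.26% of the list beside 9.00% of all genes. Of 14 B and plasma cell markers 3 rose (Ms4a1, Cd22 and Ighd), with Ighm at 21.03 ± 11.7 to 9.44 ± 3.32 CPM and not called. Without before 2, before 4, after 2 or after 3 the number of B cell markers that rose was 1. Lymphocyte markers such as Cd3e (0.373 ± 0.194 to 0.468 ± 0.291 CPM) and Cd8a (0.291 ± 0.239 to 0.324 ± 0.126 CPM) were near 0 in both groups. Calls also ended without the libraries in brackets, with edgeR's adjusted p beside them, for Prf1 (before 1, 2, 3 and 4 and after 1, 2 and 3, p 0.0523 to 0.155), Cd22 (before 1, 2 and 4 and after 2 and 3, p 0.0587 to 0.0859) and Ighd (before 2 and 4 and after 2, 3 and 4, p 0.0569 to 0.0824).

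Genes of matrix and activated stellate cells rose in 13 of 31 members, and the other 18 were not called. Loxl4, a lysyl oxidase that crosslinks collagen, had 2.21, 1.54, 3.22 and 2.07 CPM before and 12.2, 13.7, 14.7 and 14.7 CPM after (log2FC 2.61 ± 0.20, edgeR adjusted p 3.27e-05). The 4 values after resection were within a narrow range and far above those before it. Col5a2 rose from 2.49 ± 0.326 to 8.75 ± 3.21 CPM (log2FC 1.81), Lum from 7.25 ± 0.851 to 15.9 ± 3.94 CPM and Mmp2 from 2.59 ± 0.592 to 6.33 ± 2.12 CPM. The fibrillar collagen gene Col3a1 went from 24.5 ± 4.78 to 64.5 ± 24.98 CPM (edgeR adjusted p 0.0221). Col3a1 was not called without any one of before 1, 2 and 4 and after 2 (adjusted p 0.0528 to 0.0651 by edgeR). Col1a1 had 7.72, 8.62, 13.6 and 9.37 CPM before and 29.8, 26.4, 14.7 and 82.4 CPM after and was not called (edgeR adjusted p 0.0629), nor was Acta2 (4.09 ± 0.965 to 5.83 ± 4.96 CPM). Left out in turn, before 1, before 2 and before 4 lowered the number that rose to between 6 and 8. Of 18 markers of quiescent stellate cells 3 rose, Rgs5 and Ngfr among them, and 1 fell (Ecm1, from 89.03 ± 9.91 to 47.8 ± 14.6 CPM), with Lrat, which esterifies vitamin A, at 14.5 ± 1.303 to 13.9 ± 2.69 CPM. The number that rose was 0 or 1 without before 2, before 4, after 1, after 2 or after 4. Calls also ended without the libraries in brackets, with edgeR's adjusted p beside them, for Rgs5 (before 2, 3 and 4 and after 1, 2 and 4, p 0.052 to 0.0644) and Ngfr (before 2 and 4 and after 1, 2 and 4, p 0.0581 to 0.0662).

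Of 26 endothelial markers 6 fell, compared with 7.26% of all genes. In the same list 2 rose, a share close to the 9.00% of all genes. Oit3 fell from 31.6 ± 1.49 to 17.1 ± 4.96 CPM and Esm1 had 0.394, 0.692, 1.41 and 1.44 CPM before and 0, 0.227, 0 and 0.143 CPM after, with no fold printed. Stab1 went from 53.7 ± 6.95 to 37.6 ± 6.78 CPM, whereas the general markers Pecam1 (21.9 ± 1.69 to 19.6 ± 4.51 CPM) and Lyve1 (11.5 ± 2.24 to 8.95 ± 3.31 CPM) were not called. Plvap and Cdh5 rose, from 34.03 ± 1.65 to 50.05 ± 12.1 CPM and 25.7 ± 3.27 to 35.03 ± 5.79 CPM. Plvap was not called without any one of before 1, 2, 3 and 4 and after 1, 2 and 4 (adjusted p 0.0622 to 0.0829 by edgeR). Cdh5 was not called without any one of before 1, 2 and 4 and after 1 and 2 (adjusted p 0.0646 to 0.106 by edgeR). The number that fell was 3 without after 3, and the number that rose was 0 without before 1, before 2, before 4, after 1 or after 2, and 1 without before 3 or after 4. Of 8 mesothelial markers 0 were called by edgeR, 3 at an unadjusted p under 0.05 and 2 by DESeq2. Of 9 erythroid genes, Alas2 fell from 128 ± 37.6 to 48.9 ± 6.06 CPM and Klf1 from 1.89 ± 0.246 to 0.805 ± 0.294 CPM, Slc4a1 rose from 0.654 ± 0.134 to 1.93 ± 0.476 CPM, and the globin gene Hbb-bs had 210.4 ± 111 to 141 ± 63.7 CPM, not called. The call of Stab1 ended without before 2 or after 3 or 4 (edgeR adjusted p 0.0599 to 0.0716).

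Interferon stimulated genes rose in 15 of 28 members, the other 13 were not called, and all 28 had a positive log2 fold change, with a median of 0.90. Irf7, a factor of the interferon response, went from 74.3 ± 7.15 to 253 ± 70.4 CPM (log2FC 1.77 ± 0.18, edgeR adjusted p 0.00024). Ifi27l2b had 5.31, 6.33, 9.82 and 5.92 CPM before and 50.7, 47.5, 79.2 and 93.7 CPM after (log2FC 3.31 ± 0.30, edgeR adjusted p 0.000572), and Bst2, which tethers viruses to the cell, went from 122 ± 20.6 to 284 ± 58.01 CPM. The groups did not overlap in these genes. Isg15 (20.5 ± 7.74 to 53.4 ± 24.5 CPM), Ifit1 (24.9 ± 11.5 to 38.6 ± 13.6 CPM) and Usp18 were not called. Of 15 genes of MHC class I presentation 5 rose, including Tapbp (109 ± 9.04 to 184 ± 18.01 CPM; log2FC 0.75) and H2-D1 (648 ± 52.4 to 870.4 ± 90.2 CPM; log2FC 0.43), while B2m (2129 ± 156 to 2264 ± 121 CPM) and H2-K1 (1276 ± 130.4 to 1148 ± 82.8 CPM) were not called. Without after 3 or after 4 there were 3. The call of H2-D1 ended without before 1 or 2 or after 3 or 4 (edgeR adjusted p 0.056 to 0.108).

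**Figure D5:**
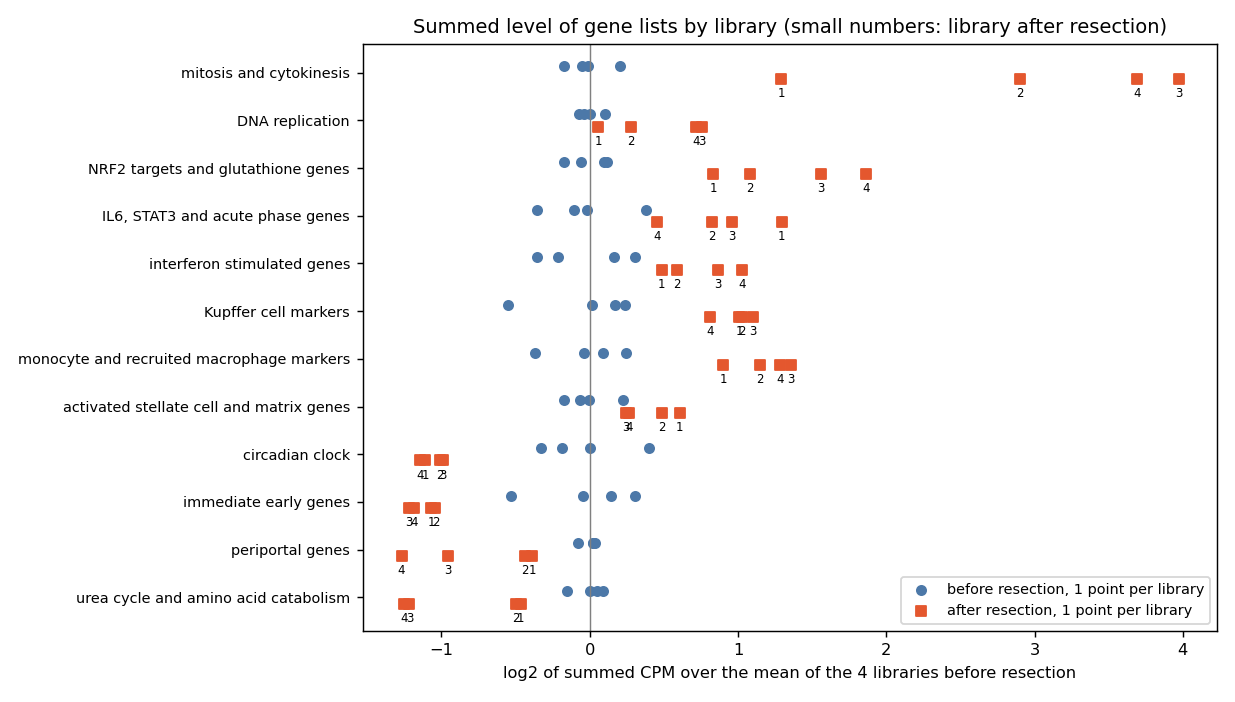
Log2 of the summed CPM of 12 gene lists in each control library over the mean of the 4 libraries before resection; circles are libraries before and squares libraries after resection, whose column number stands beneath. Squares of the mitosis list spread from after 1 to after 3, and those of the clock list lie close together below all circles. Those of the periportal and urea cycle lists, which share members, are lowest in after 3 and after 4.

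Among genes in no list, the largest falls by rule were those of Car3 and of 3 predicted genes. Car3 (ENSMUSG00000027559.5; chromosome 3, 14863512 to 14872523), a carbonic anhydrase abundant in male liver, had 2314, 2314, 4119 and 5429.8 CPM before and 534, 438, 232 and 514 CPM after (log2FC -3.04 ± 0.38, edgeR adjusted p 0.00152), without overlap. Gm35696 had 14.1, 13.5, 6.21 and 3.51 CPM before and 0.917, 1.13, 0.701 and 0.333 CPM after and Gm32468 had 2.71, 3.09, 4.74 and 14.5 CPM before and 0.489, 0.794, 0.863 and 0.1901 CPM after, both RNAs of unknown function, and Gm13775, which shares 34.9% of its exon bases with Mup-ps16 on the same strand, went from 12.4 ± 13.8 to 0.538 ± 0.427 CPM with no fold printed (edgeR adjusted p 0.0388). Gm13775 was not called without any one of before 3 and after 1, 2, 3 and 4 (adjusted p 0.0684 to 0.106 by edgeR). Further genes, chosen after their values were seen, had among the smallest p outside the lists. Tmprss2, a membrane protease, rose from 5.17 ± 0.541 to 19.04 ± 2.001 CPM (log2FC 1.88 ± 0.13, edgeR adjusted p 2.16e-05), and Mpeg1, a pore-forming protein of macrophages, from 94.6 ± 17.6 to 337 ± 45.6 CPM (log2FC 1.83). Klf15, a factor of amino acid catabolism in fasting, fell from 209.9 ± 22.02 to 77.6 ± 10.7 CPM (log2FC -1.44 ± 0.12, edgeR adjusted p 6.67e-05). Txnip, whose transcription follows glucose, fell from 100.1 ± 15.8 to 39.2 ± 5.54 CPM (log2FC -1.35). Inmt, a methyltransferase, fell from 354 ± 88.96 to 60.5 ± 15.97 CPM (log2FC -2.55) and Sult2a8, a sulfotransferase, from 685 ± 100.4 to 123 ± 49.6 CPM (log2FC -2.48).

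The libraries after resection were not equally far from those before it. Among the 1812 genes that rose, after 1 was the lowest of the 4 libraries after resection in 805 (44.4%), and among the 1463 that fell it was the highest in 708 (48.4%). The library before resection nearest to the other group was before 3 in 39.5% of the genes that rose and 36.1% of those that fell. Without after 1 the number of called genes was 3365, and without after 4 it was 2368, the highest and lowest of the 8 fits that left out 1 library.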

How the data were processed

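Poly-A selected RNA of liver was sequenced, and 8 of the 16 libraries (control, 4 before and 4 after resection) were used; the other 8 entered 1 alternative only. Per the labels and the study's methods, the authors trimmed reads where needed and aligned them to mm10 with STAR. The deposited count table holds raw read counts per gene ID; the study's methods name HOMER for the counting and the submitters' processing notes name HTSeq. The deposited FPKM table (Cufflinks in those notes) scales the values by length and depth. Annotation release and use of strand are not given in the sources used here. Of the 55421 IDs, 54673 matched GENCODE M21, which gave positions on mm10. Totals ran from 16981835 to 20356781 counts, and pairs of replicates within a group differed by more than counting noise (chi-square per degree of freedom 19.9 to 77.8 over 12 pairs). By the study's methods the mice that gave the tissue before resection were those harvested after it, but column names give neither mouse nor virus. Animals were therefore not paired, the libraries were fitted as independent, and p-values measure the spread between these libraries.

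Genes with at least 10 counts over the 8 libraries were fitted with edgeR 4.0.16 (R 4.3.3; robust quasi-likelihood test, TMM factors, prior count 0.125) as after against before, with Benjamini-Hochberg adjustment over all 20144 genes and calls at an adjusted p under 0.05. Shares of counts were compared by exact permutation tests. The script was tested on simulated data. The alternatives were DESeq2 1.42.0, RLE factors, filterByExpr, no filter, a fit of all 16 libraries, the column number as a block, limma 3.58.1 on log2(FPKM + 1) with empty cells read as 0, a prior count of 2, and leaving out each library. A limma fit without genes that have empty FPKM cells was chosen after seeing the data. The members and the 45 lists were chosen with earlier results of these data known.

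Genes were named by rule: the 12 called genes each way with the largest fold, no overlap and a mean of at least 5 CPM; the 10 each way with the largest difference in CPM; and of each list its lead genes and the 4 called members with the smallest p. Other list members and other genes named were chosen after their values were seen. No fold is printed where a library of the lower group held under 3 counts. Of the named genes, 13 share more than 20% of their exon bases with another annotated gene, among them Ccnd1, Ccn2, Cebpb, Apoa5, Hira and Kif20a, and their counts are uncertain to that extent. RefSeq promoter windows of GRCm38.p6 were matched by symbol. Some genes are not reported here.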

Additional observations from a re-analysis of the deposited data

Results flagged for a closer look

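For each gene named in the report and for 5 measures of the libraries (total counts, genes detected, and the shares of mitochondrial genes, Alb and the Mup family), each group of 4 libraries was searched for 1 library that stood apart from the other 3. A library was listed where its gap to the nearest other library, as a share of the whole range of the group (Dixon's ratio), exceeded Dixon's critical value for groups of 4. This was so in 38 of 566 groups (6.71%), and chance gives about 1 in 20. No cause was tested. The brackets give Dixon's ratio, then the CPM of the library and of the one nearest to it.

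Library before 1 lay above the rest of its group for Ecm1 (0.912, 104 against 84.8 CPM). Library before 2 lay above the rest of its group for Myc (0.951, 41.1 against 5.12 CPM), Bst2 (0.882, 153 against 115 CPM) and Hist1h3d (0.855, 0.213 against 0.115 CPM). Library before 2 lay below the rest of its group for Krt19 (0.939, 1.17 against 1.92 CPM) and Mmp2 (0.897, 1.703 against 2.82 CPM). Library before 3 lay above the rest of its group for Cdk1 (0.919, 1.58 against 0.851 CPM), Hmmr (0.85, 0.734 against 0.246 CPM), Lcn2 (0.971, 116 against 7.59 CPM), Hpx (0.87, 6915 against 4114 CPM), Ccnb1 (0.847, 0.9598 against 0.2299 CPM), Ier5 (0.87, 5.93 against 5.32 CPM) and Saa1 (0.953, 1380 against 102 CPM). Library before 3 lay below the rest of its group for Errfi1 (0.861, 1100 against 1431 CPM). Library before 4 lay above the rest of its group for Ndufa6 (0.877, 139 against 124 CPM), Cdkn1a (0.932, 145 against 37.7 CPM), Cyp4a14 (0.939, 240 against 15.5 CPM), Dgat2 (0.852, 584 against 519 CPM), Ly6d (0.931, 0.862 against 0.426 CPM), Cyp2b9 (0.967, 45.5 against 1.98 CPM) and Cyp2a4 (0.894, 6.32 against 1.22 CPM). Library before 4 lay below the rest of its group for Lum (0.879, 5.98 against 7.56 CPM).

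Library after 1 lay above the rest of its group for Cyp2e1 (0.948, 2628 against 1451 CPM), Hbb-bs (0.857, 236 against 118 CPM) and Orm2 (0.855, 1114 against 653 CPM). Library after 2 lay above the rest of its group for Hist1h2bc (0.884, 68.4 against 64.4 CPM), Mdm2 (0.893, 72.7 against 58.97 CPM), Cyp4a12a (0.887, 126 against 22.98 CPM) and Mup12 (0.929, 9.07 against 2.32 CPM). Library after 2 lay below the rest of its group for Epcam (0.835, 1.47 against 1.71 CPM). Library after 3 lay above the rest of its group for Cry1 (0.917, 28.3 against 11.9 CPM), Bcl6 (0.846, 57.5 against 21.8 CPM) and Prf1 (0.869, 0.755 against 0.306 CPM). Library after 3 lay below the rest of its group for Dbp (0.859, 0.863 against 2.995 CPM). Library after 4 lay above the rest of its group for Pttg1 (0.978, 25.3 against 20.3 CPM), Cyp2a4 (0.86, 599.7 against 87.4 CPM) and Mup-ps16 (0.981, 0.856 against 0.122 CPM). Library after 4 lay below the rest of its group for Pck1 (0.862, 712 against 1041 CPM).

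Among these genes, Lcn2, Saa1, Cdkn1a and Cyp2a4 are described in the report with the value of every library. Library before 3 was highest for both acute phase genes Lcn2 and Saa1, and library before 4 for Cdkn1a and Cyp4a14.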

How the results depend on the processing

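Fits on the counts of all 8 control libraries called between 3267 (filterByExpr) and 3879 genes (replicate block), compared with 3275 in the report, and 3415 without a filter, 3284 with RLE factors and 3747 with DESeq2. Of the 3275 genes, 3181 were also called by DESeq2, 3252 with RLE factors and 2998 with filterByExpr, all in the same direction. The fit of all 16 libraries called 2350, with 960 lower in place of 1463. With limma on FPKM, 2006 were called, 612 lower and 500 with a log2 fold change over 1 in either direction, and 69.5% of the calls were higher, compared with 55.3%. In the fit added after seeing the data, without genes that have an empty FPKM cell, 2377 were called, 728 lower and 530 over 1. Of the genes tested, 2261 have an empty cell, 140 of them at 10 or more counts in that library. The cause of these differences was not tested.

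Leaving out 1 library gave 2368 (without after 4) to 3365 (without after 1) called genes, 1392 to 1843 of them higher, 972 to 1522 lower and 1131 to 1481 over 1; between 2276 and 2869 were among the 3275. The difference in the mitochondrial share ran from -1.91 to -1.57 percentage points, that of Alb from 1.78 to 2.72 and that of the Mup family from -0.917 to -0.706, each with an exact permutation p of 0.0571, the smallest that 3 against 4 allows.

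The column number was not used for pairs in the report, since no label gives the mouse of a column. As a description, deviations from the group means of same-numbered libraries correlated at 0.205, 0.281, 0.0798 and 0.382 over 12934 genes. Each library correlated best with its own number. With the number as a replicate block, 3879 genes were called, 2106 higher and 1773 lower, 1533 over 1, and 3121 of the 3275 were among them.

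Several list counts moved by more than 1.5 times. By DESeq2, 31 urea cycle and amino acid genes, 9 fatty acid synthesis genes and 7 mitochondrial transcripts fell, and 12 fetal genes rose. In the 16 libraries, 23 respiratory chain, 2 pericentral (4 rose), 2 bile acid and 1 fatty acid oxidation genes fell and 7 matrix, 3 neutrophil and 2 MHC class I genes rose. By limma on FPKM, 21 replication genes rose, 4 growth factor genes and 2 endothelial markers fell, and 1 neutrophil marker rose. With filterByExpr 2 neutrophil markers rose. With the block, 17 male-biased genes fell and 8 female-biased genes rose, and of the fatty acid oxidation genes 3 rose and 11 fell. The mitosis list had 56 calls by DESeq2 as well, with a median of 1.70 by limma on FPKM, a scale that understates changes of low genes. Depth limits the folds of genes under 1 CPM in a group.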
